A study of Rattus norvegicus with 16 samples.

Results

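The libraries compared here are the 5 saline control blood samples with the highest and the 5 with the lowest normalized level of Alas2, chosen by that measured level from 16 rat whole blood libraries. The 6 libraries between them belong to neither group. All 16 carry one label, saline control, so the Alas2-high and Alas2-low groups are not groups of the study, and the labels give both the same treatment. The study treated its controls in several experiments at separate times, and the labels do not say which library is from which, so experiment and Alas2 group cannot be told apart. Each library came from 1 adult male Sprague-Dawley rat of 85 to 90 days, given 4 saline injections of 1 ml/kg, 2 h apart, and killed 3 h after the last. By the series' description the animals had neither food nor water in that period, and by the study's methods blood was drawn from the heart under pentobarbital, and globin mRNA was removed before sequencing, so both groups share these steps.

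Alas2 encodes the erythroid form of 5-aminolevulinate synthase, the enzyme that starts heme synthesis in red cell precursors. Mature red cells of mammals have no nucleus, and most red cell RNA in blood is held by reticulocytes, young cells that still carry messenger RNA for globins, heme enzymes and membrane proteins while they clear their organelles. Heme is built partly in mitochondria from glycine and succinyl-CoA, and its last step, catalysed by ferrochelatase (Fech), inserts iron. In bulk blood, fewer cells of a type and less RNA per cell cannot be told apart.

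Alas2 had 1 entry in the files. In the Alas2-high libraries its normalized count was 631489 in control 10, 538348 in control 5, 397682 in control 8, 386533 in control 7 and 374353 in control 16. In the Alas2-low libraries it was 188292 in control 15, 185811 in control 12, 169654 in control 13, 158945 in control 14 and 136028 in control 11. The 6 libraries in neither group lay between 192470 and 286363. The means were 465681 ± 114020 (SD, n = 5) and 167746 ± 21422 (SD, n = 5), a ratio of 2.78, and the highest library held 4.64 times the level of the lowest. The lowest library of the upper group stood at 374353 against 286363 for the next below it, while 188292, the highest of the lower group, was close to 192470 in control 3 just above it. Because these values chose the libraries, they carry no test, and Alas2 was left out of the genes tested. It stayed in the counts from which the library measures were taken. The size factors were 0.6423 to 0.8076 in the upper group and 0.9696 or more in every other library. In CPM, without these factors, Alas2 was 11194.8 to 16121.5 in the upper and 6120.6 to 9237.9 in the lower group. By CPM, controls 8 and 7 lay below controls 6 and 4 of neither group, at 12485.0 and 12245.2. So the gap between the groups and the choice of libraries depend on the scaling.

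**Figure D1:**
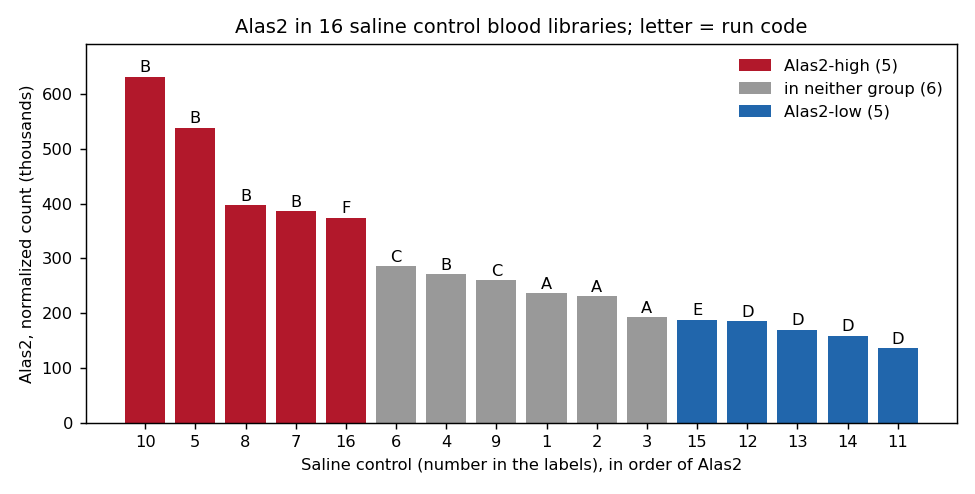
Bars give the normalized Alas2 count (axis in units of 1000) of each of the 16 saline controls in falling order, coloured by group, with the letter of the run code in the name of its file above each bar. The 5 libraries at the left run from 374353 to 631489 and hold run codes B and F, and the 5 at the right run from 136028 to 188292 and hold codes D and E.

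The file names carry 6 codes, called run codes here and written as the letters A to F. The labels do not say what these codes stand for. The Alas2-high libraries hold code B (4 libraries) and F (1 library), the Alas2-low libraries D (4 libraries) and E (1 library), and 0 codes occur in both groups. Run code and Alas2 group cannot be told apart in the comparison of 5 with 5. The 10 libraries held 23129525 to 29749566 counts, with means of 26073351 ± 1800275 (SD, n = 5) in the upper and 25771134 ± 2772640 (SD, n = 5) in the lower group (two-sided exact permutation over the ways to split the 10 libraries, p = 0.873, with a smallest possible p of 0.00794). The 20 highest genes took 37.2% ± 3.54 (SD, n = 5) of the counts against 31.5% ± 3.17 (SD, n = 5), which passed that exact permutation test alone (p = 0.0317) but not after adjustment over the 5 measures (adjusted p = 0.159). Alas2 was not taken out of this share, and the normalization that entered the ranking is linked to it. So this test is not independent of how the groups were chosen. The 10 globin entries took 10.1% ± 1.34 (SD, n = 5) and 10.6% ± 4.27 (SD, n = 5) of the counts, and ribosomal protein genes 6.08% ± 0.631 (SD, n = 5) and 6.07% ± 1.51 (SD, n = 5) (exact permutation p = 0.81 and 0.992).

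Markers of other tissues stood apart in some libraries. Albumin (Alb), made by the liver, reached 11402 normalized counts in control 8, 3102 in control 7 and 1793 in control 5, and at most 14.0 in the other 7 libraries of both groups. Myoglobin (Mb), of heart and skeletal muscle, was at 203.9 in control 10 and at most 28.0 elsewhere in the 10. Control 12, an Alas2-low library, held 4189 counts of Rag1, which cuts antigen receptor genes in early lymphocytes, against at most 23.4 in the other 9, and the summed fat markers were 7695 there against at most 1644. Without controls 8, 10 and 12, chosen after these values were seen, 404 genes were called higher and 33 lower.

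In the fit across all genes, 12042 genes were tested with edgeR's quasi-likelihood test, and 638 were higher and 26 lower in the Alas2-high libraries at an adjusted p under 0.05. That is 5.3% of the genes tested for the higher calls and 0.216% for the lower calls. The median log2 fold change over all genes tested was -0.05, with 43.2% of genes above 0. Scaling to the total count of each library gave 225 higher and 6022 lower genes and moved the median of all genes to -0.64, so fold changes here are relative to the bulk of genes. Of the 638 higher genes, 564 had normalized counts that did not overlap between the 5 and 5 libraries, as did 22 of the 26 lower genes. Over all genes tested, 691 were without overlap in the higher direction (5.74%) and 99 in the lower (0.822%). The higher calls had a median log2 fold change of 1.02 and lay at a median mean expression of 6.12 log2 CPM, against 3.28 for all genes tested.

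Promoter sequences are shown for Alas2, which ranked the libraries, for Cat, for the globin gene Hbe1 and the membrane gene Tmod1, both among the genes called higher with the largest fold changes of their lists, and for Gata1 and Klf1, erythroid factors known to bind GATA and CACCC motifs. Each is the 250 bases before the start in the RefSeq table of build GRCr8, 5′ to 3′ on the gene's strand. The counts themselves were made on build rn5. Capitals mark the GATA motif (GATA with A or T before it and A or G after it) and CACCC, on either strand. The windows are chrX:22895200-22895449 (plus strand) for Alas2, chr3:110329527-110329776 (minus) for Cat, chr1:167696281-167696530 (minus) for Hbe1, chr5:65111812-65112061 (plus) for Tmod1, chrX:17201387-17201636 (plus) for Gata1 and chr19:40158652-40158901 (minus) for Klf1. For Alas2, Gata1 and Hbe1 the RefSeq gene begins 4800, 8346 and 175811 bases further upstream, so these windows lie at an internal start.
Alas2: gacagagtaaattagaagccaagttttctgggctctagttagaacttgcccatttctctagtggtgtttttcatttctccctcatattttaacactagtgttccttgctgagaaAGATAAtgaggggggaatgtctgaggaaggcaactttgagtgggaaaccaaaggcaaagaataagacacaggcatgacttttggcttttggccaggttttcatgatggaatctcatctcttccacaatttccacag
Cat: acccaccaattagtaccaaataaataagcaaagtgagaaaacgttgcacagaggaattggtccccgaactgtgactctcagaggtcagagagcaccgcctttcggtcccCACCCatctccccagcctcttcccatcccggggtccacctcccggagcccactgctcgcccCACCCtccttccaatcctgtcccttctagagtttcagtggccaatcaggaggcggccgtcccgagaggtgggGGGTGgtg
Hbe1: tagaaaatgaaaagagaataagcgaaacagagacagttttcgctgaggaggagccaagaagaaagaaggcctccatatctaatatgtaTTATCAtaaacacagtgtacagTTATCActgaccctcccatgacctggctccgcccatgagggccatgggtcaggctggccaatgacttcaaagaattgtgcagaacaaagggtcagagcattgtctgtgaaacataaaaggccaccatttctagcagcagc
Tmod1: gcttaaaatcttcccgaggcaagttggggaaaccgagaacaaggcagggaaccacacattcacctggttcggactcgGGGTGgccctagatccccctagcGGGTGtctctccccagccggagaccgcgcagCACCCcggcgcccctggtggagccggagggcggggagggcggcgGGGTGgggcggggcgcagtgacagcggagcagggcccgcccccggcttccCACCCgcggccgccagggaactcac
Gata1: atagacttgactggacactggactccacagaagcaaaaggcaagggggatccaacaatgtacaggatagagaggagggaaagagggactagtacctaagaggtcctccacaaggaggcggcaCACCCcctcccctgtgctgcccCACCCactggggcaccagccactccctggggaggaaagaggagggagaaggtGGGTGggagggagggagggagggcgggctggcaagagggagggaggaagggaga
Klf1: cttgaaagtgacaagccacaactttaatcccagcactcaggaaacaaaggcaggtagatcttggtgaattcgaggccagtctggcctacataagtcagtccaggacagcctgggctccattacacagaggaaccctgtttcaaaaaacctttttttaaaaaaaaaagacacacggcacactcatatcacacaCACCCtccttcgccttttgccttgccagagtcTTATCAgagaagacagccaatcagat

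The Alas2 window held 1 GATA motif and 0 CACCC motifs, the Cat window 0 and 3, and the Klf1 window 1 and 1. Of the 638 genes called higher, 481 matched a gene of the promoter table by symbol or synonym, and 8950 of the 12042 tested genes did. In the 300 bases from 250 before to 50 after the start, a GATA motif occurred in 23.1% of the higher genes and 18.9% of all tested genes with a promoter. CACCC occurred in 58.8% and 61.7%, and CANNTG, the E-box, in 63.0% and 62.1%. Only 11 of the 26 lower genes had a promoter in the table, and 2 of them held a GATA motif. These matches describe letters in a window and no site was measured.

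Catalase (Cat), which breaks down hydrogen peroxide and is abundant in red cells, was among the genes with the largest fold changes. Its normalized counts in the Alas2-high libraries were 35991 (control 10), 49641 (control 5), 25884 (control 8), 21476 (control 7) and 15649 (control 16). In the Alas2-low libraries they were 7808 (control 15), 11225 (control 12), 6258 (control 13), 7724 (control 14) and 7364 (control 11). Every Alas2-high library was above every Alas2-low library. The means were 29728 ± 13387 (SD, n = 5) and 8076 ± 1866 (SD, n = 5), a log2 fold change of 1.86 ± 0.30 (SE, adjusted p = 0.00649, edgeR). Control 4, the 1 library of run code B outside the upper group, had 11582 counts of Cat, below its 4 run mates and above all 5 Alas2-low libraries. In the 6 libraries in neither group Cat ran from 11582 to 20171 and did not follow Alas2 (Pearson r = -0.08, Spearman rho = -0.20, a description over 6 libraries). The value of 20171 was that of control 2, which held 330270 counts of Alb, and the next highest was 14393 in control 9. What liver transcripts contribute to Cat in any library was not tested. With the 8 highest against the 8 lowest libraries the Cat difference was 1.10 and no longer passed (adjusted p = 0.0673, edgeR).

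Genes of heme synthesis were higher in part. Of 15 tested members, 4 were called higher and 0 lower (5.3% and 0.216% over all genes tested, the background for each list that follows), and the median log2 fold change was 0.83 against -0.05 over all genes tested. Fech, ferrochelatase, had normalized counts of 108536, 87638, 63850, 73289 and 75987 in controls 10, 5, 8, 7 and 16. In controls 15, 12, 13, 14 and 11 it had 36733, 30816, 38359, 30024 and 27486. The groups did not overlap, and the log2 fold change was 1.31 ± 0.18 (SE, adjusted p = 0.00524). Slc25a39, a carrier of the mitochondrial inner membrane that imports glutathione, rose from 147654 ± 10117 to 330896 ± 102755 (SD, n = 5 each; log2 fold change 1.15, adjusted p = 0.00949, edgeR). Urod, uroporphyrinogen decarboxylase, and Abcb10, a mitochondrial ATP-binding transporter needed for heme formation, were called with log2 fold changes of 1.03 (adjusted p = 0.0485) and 1.03 (adjusted p = 0.00645). Alad, the enzyme of the second step, had a log2 fold change of 0.83 that did not pass (adjusted p = 0.097, edgeR). Alas1, the form of the first enzyme used outside red cells and picked out after its value was seen, was at -0.18 (adjusted p = 0.931).

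The globin list held 9 tested genes, 4 of them called higher and 0 lower, with a median log2 fold change of 0.87. Globin mRNA had been depleted, so these levels are what was left after that step. The largest called change was that of Hbe1, an embryonic beta-like globin, with 618.0, 406.1, 591.3, 339.7 and 301.4 normalized counts in controls 10, 5, 8, 7 and 16. In controls 15, 12, 13, 14 and 11 it had 139.9, 180.9, 193.7, 169.1 and 134.5, all below the upper group. Its log2 fold change was 1.45 ± 0.22 (SE, adjusted p = 0.0061). Hbz, an embryonic alpha-like globin, was low in every library, from 15.0 to 31.1 in the upper and 8.7 to 12.0 in the lower group (log2 fold change 1.18, adjusted p = 0.0322, edgeR). Hbq1b, theta globin, and Ahsp, the chaperone of free alpha globin, were each called with a log2 fold change of 1.08 (adjusted p = 0.0232 and 0.0469). Other globin genes did not pass. Hba-a2 had 1907470 ± 158826 against 1428238 ± 656691 (SD, n = 5 each) and Hbb 193501 ± 54482 against 108957 ± 39537 (adjusted p = 0.653 and 0.141, edgeR). A further beta-globin entry written HBB in capitals, named after its values were seen, had 240567 to 371160 against 74663 to 147642 counts (log2 fold change 1.42, adjusted p = 0.00645). Globin genes are near copies of each other, so how the counting divided reads among them is uncertain, and under total count scaling Hba-a2 was at -0.16.

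**Figure D2:**
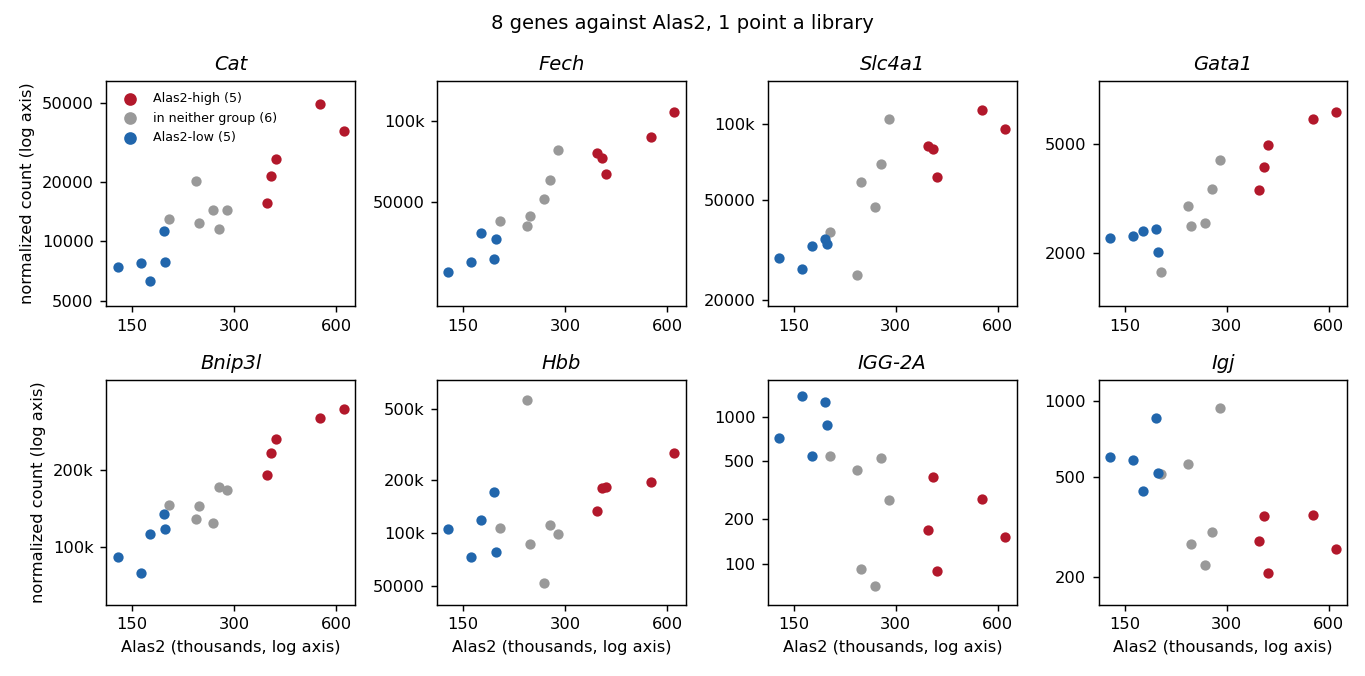
Each panel plots 1 gene's normalized count against that of Alas2 on log axes, with 1 point for each of the 16 libraries, coloured by group. Cat, Fech, Slc4a1, Gata1 and Bnip3l are higher in all 5 Alas2-high than in all 5 Alas2-low libraries, Hbb overlaps between them, and IGG-2A and Igj are lower in the Alas2-high libraries.

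Genes of the red cell membrane and its skeleton were called higher in 11 of 23 tested cases and lower in 0, with a median log2 fold change of 0.91. Slc4a1, band 3, the anion exchanger that anchors the skeleton, had 95833, 114338, 61387, 79310 and 82223 counts in controls 10, 5, 8, 7 and 16. It had 33368, 34986, 32566, 26499 and 29390 in controls 15, 12, 13, 14 and 11, without overlap, and its log2 fold change was 1.45 ± 0.19 (SE, adjusted p = 0.00487). Control 4 of run code B, at 69703, lay within the range of its 4 run mates in the upper group. Tmod1, tropomodulin, which caps the short actin filaments of the skeleton, had a log2 fold change of 1.44 (adjusted p = 0.00622), and Epb42, protein 4.2, one of 1.33 (adjusted p = 0.00765). Add2, beta-adducin, rose from 11194 ± 980.3 to 26466 ± 5629 (SD, n = 5 each; adjusted p = 0.00524, edgeR). Add1, alpha-adducin, which is used in many cell types, was at -0.01 (adjusted p = 0.984).

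Among 20 genes of erythroid transcription and its signals, 7 were called higher and 0 lower, with a median log2 fold change of 0.57 (-0.05 under total count scaling). Gata1, the factor required for red cell development, had 6133, 4965, 4114 and 3394 counts in controls 5, 8, 7 and 16, more than these in control 10, and 2018, 2443, 2404, 2310 and 2270 in controls 15, 12, 13, 14 and 11. The groups did not overlap (log2 fold change 1.12 ± 0.19, SE, adjusted p = 0.00714). Klf1, which activates adult beta globin, had 9495 ± 1928 against 4576 ± 954.4 (SD, n = 5 each; log2 fold change 1.04, adjusted p = 0.012, edgeR). Tfdp2, a dimer partner of the cell cycle factor E2F, had the largest change of the list at 1.58 (adjusted p = 0.00487), and Sox6, which represses embryonic globins in adult cells, was at 1.34 (adjusted p = 0.027). Tal1 and Nfe2, the first uncalled members in the order of the list, were at 0.25 and 0.78 (adjusted p = 0.907 and 0.0659, edgeR). Platelet precursors also use Gata1 and Nfe2, and the platelet list is given further on.

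Reticulocyte maturation held the highest share of called members, 18 of 28 tested genes higher and 0 lower, with a median log2 fold change of 1.05. Bnip3l (NIX), the receptor by which reticulocytes remove mitochondria, had 347218, 319918, 264526, 232466 and 191609 counts in controls 10, 5, 8, 7 and 16. It had 117692, 134781, 112909, 79233 and 91181 in controls 15, 12, 13, 14 and 11, all lower (log2 fold change 1.32 ± 0.22, SE, adjusted p = 0.00649). Hagh, hydroxyacylglutathione hydrolase, had the largest change of the list at 1.46 (adjusted p = 0.00583). Alox15, the 15-lipoxygenase that attacks organelle membranes in reticulocytes, was at 1.35 (adjusted p = 0.0149), and Trim58, a ubiquitin ligase of late erythroid cells, at 1.33 (adjusted p = 0.0158). Ubac1, a subunit of another ubiquitin ligase, rose by 1.33 on the log2 scale (adjusted p = 0.00704). Map1lc3b, the LC3B protein of autophagosomes, rose by 1.31 (adjusted p = 0.00632). Ulk1, the kinase that starts autophagy, was at -0.41 (adjusted p = 0.277), so not every gene of that process moved.

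Antioxidant genes divided. Of 22 tested members, 9 were called higher and 0 lower, with a median of 0.46 (-0.16 under total count scaling), and 6 members had values below 0. Beside Cat, the called genes with the largest changes were Gpx1, a glutathione peroxidase (1.37, adjusted p = 0.00847), BLVRB, biliverdin reductase B (1.33, adjusted p = 0.00645), and Gclm, which with Gclc starts glutathione synthesis (1.27, adjusted p = 0.00724). Peroxiredoxin 2 (Prdx2), among the most abundant proteins of the red cell, had 207254 to 501918 counts in the upper and 100463 to 168550 in the lower group (log2 fold change 1.17, adjusted p = 0.0205, edgeR). Gclc was at -0.17 (adjusted p = 0.724), and Sod1, which turns superoxide into peroxide, at 0.38 (adjusted p = 0.287).

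Iron handling held 16 tested genes, 7 called higher and 0 lower, with a median of 0.76. Among the largest called changes were those of Slc25a37 (mitoferrin, the importer of iron into mitochondria), Ncoa4 (the receptor that sends ferritin to lysosomes) and Isca1 (an iron-sulfur carrier), at 1.35, 1.35 and 1.34. Their adjusted p-values were 0.00645, 0.00649 and 0.0113 (edgeR). RGD1563216, listed in RefSeq as Isca2, the partner of Isca1, came under the rule for all genes, with 3783 ± 870.2 against 1210 ± 207.9 counts (SD, n = 5 each; log2 fold change 1.63, adjusted p = 0.00487, edgeR). The transferrin receptor Tfrc, which brings iron into the cell, had 634.0 to 1149 against 393.7 to 659.8 counts and did not pass (log2 fold change 0.78, adjusted p = 0.0569, edgeR).

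Of 20 genes of gas transport and glycolysis, 5 were called higher and 0 lower, and the median was 0.16 (-0.39 under total count scaling). The called genes were Car1 and Ca2, the carbonic anhydrases of red cells (1.51 and 1.23), Pklr, the red cell and liver pyruvate kinase (107.6 to 221.1 against 54.5 to 105.0 counts), Bpgm, which makes the 2,3-bisphosphoglycerate that lowers the oxygen affinity of hemoglobin (1.12), and the hexokinase Hk1 (0.64), with adjusted p-values of 0.0314, 0.012, 0.0135, 0.0184 and 0.0475. Bpgm had 544465, 359183, 262621, 278152 and 305574 counts in controls 10, 5, 8, 7 and 16 and 133584, 216199, 163144, 148528 and 133412 in controls 15, 12, 13, 14 and 11. Gpi and Pkm, glycolytic enzymes of many cell types, were at -0.17 and 0.13 and not called (adjusted p = 0.756 and 0.932, edgeR).

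**Figure D3:**
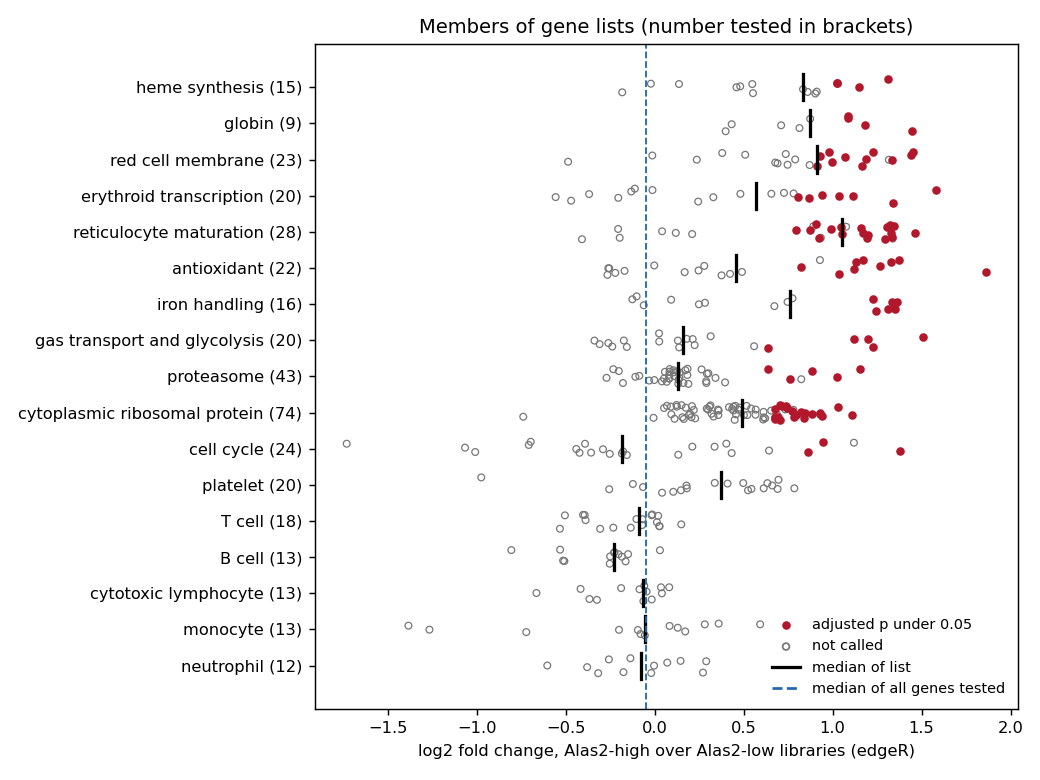
Each point is a tested member of a list, placed at its edgeR log2 fold change of Alas2-high over Alas2-low libraries, filled where the adjusted p was under 0.05, with a black bar at the median of the list and a dashed line at the median of all genes tested (-0.05). The list medians run from 0.16 to 1.05 over the 8 red cell lists and from -0.23 to -0.06 over the T cell, B cell, cytotoxic, monocyte and neutrophil lists, and those of the erythroid transcription, antioxidant, gas transport, proteasome, ribosomal and platelet lists fall below 0 under total count scaling. Under that scaling the median of all genes tested was -0.643, below the medians of the lists just named.

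Counted once each, the 8 red cell lists held 153 tested genes, of which 65 (42.5%, against 5.3% of all genes tested) were called higher and 0 lower, with a median log2 fold change of 0.79. The other 573 higher calls lay outside these lists. Under total count scaling, with all genes at a median of -0.64, the medians were -0.05 for erythroid transcription, -0.16 for antioxidant and -0.39 for gas transport and glycolysis genes, which turned direction, and 0.15 to 0.43 for the other 5 lists. In that fit 11 reticulocyte maturation genes were higher and 4 lower, 5 membrane genes higher and 2 lower, 7 iron genes higher and 2 lower, 5 antioxidant genes higher and 4 lower, and 2 erythroid transcription genes higher and 6 lower. Heme synthesis had 2 higher and 1 lower gene, globins 1 and 0, and gas transport and glycolysis 2 and 5. Proteasome genes, whose products clear proteins as reticulocytes mature and in all other cells, were called in 5 of 43 cases, with a median of 0.13. This list was drawn by symbol and also holds Psmc3ip, which is not a proteasome subunit and was not called. Under total count scaling 1 proteasome gene was higher and 25 lower, with a median of -0.47. Psmd4, a ubiquitin receptor of the proteasome, led them at 1.15 (adjusted p = 0.00487), with 5930 to 7362 against 2632 to 3280 counts. Cytoplasmic ribosomal protein genes were called higher in 22 of 74 cases and lower in 0, with a median of 0.49 and the largest changes in Rpl37 (1.11, adjusted p = 0.00883) and Rps29 (1.03, adjusted p = 0.0127). Under total count scaling the ribosomal median was -0.11 and 1 gene was called higher and 2 lower, while the median of all genes was -0.64, so the direction of this list depends on the scaling. Of 24 cell cycle genes, 3 were called higher, Tk1 (thymidine kinase 1, 1.38, adjusted p = 0.0136), Cdc20 (0.94, adjusted p = 0.0469) and Birc5 (0.86, adjusted p = 0.0251), and the median was -0.18. Under total count scaling 1 cell cycle gene was higher and 11 lower, with a median of -0.80.

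Lists of other blood cells had 0 calls in edgeR in either direction with TMM scaling. The medians were 0.37 for 20 platelet genes (-0.14 under total count scaling), -0.09 for 18 T cell genes, -0.23 for 13 B cell genes, -0.06 for 13 cytotoxic lymphocyte genes, -0.06 for 13 monocyte genes and -0.08 for 12 neutrophil genes. Under total count scaling, which put all genes at a median of -0.64, 13 T cell, 9 B cell, 7 cytotoxic and 2 monocyte genes were lower, with medians of -0.69, -0.85, -0.67 and -0.63, and 0 platelet and 0 neutrophil genes were called. No member of these lists was at 0 in all 10 libraries. Summed over each list, the normalized counts of T cell genes were 18588 to 33952 in the upper and 25846 to 40612 in the lower group. The value of 40612 was that of control 12, the library with high Rag1, and the next in the lower group was 30702 in control 14. Summed platelet genes were at 14916 to 209841 in the upper and 53232 to 130103 in the lower group. The value of 14916 was that of control 10, and the next lowest in the upper group was 123383 in control 5. Summed neutrophil genes ran from 127224 to 1187955 in the upper and from 155499 to 643041 in the lower group, with control 8 the highest. The groups overlapped in each of these sums. Of the liver list, 4 of 18 genes passed the filter on low counts. Apoa1 (apolipoprotein A1), the 1 called, was near the filter in the Alas2-low libraries and passed through the group where it was high, so its call is no support, at 15.6, 29.7, 159.5, 53.7 and 13.8 counts in controls 10, 5, 8, 7 and 16 against 4.4 to 12.1. Apoa1 was highest in control 8, the library with the most Alb among the 10, and what liver transcripts contribute to it was not tested.

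Other genes were named by the rule for all genes. Besides Cat, Tfdp2 and RGD1563216 these were Dapk2, a death-associated kinase (1.70, adjusted p = 0.00487), FIS1, which acts in mitochondrial fission (1.69, adjusted p = 0.00735), Plekhb1 (2.32, adjusted p = 0.0195), Mlf1ip, a centromere protein (1.66, adjusted p = 0.0378), RGD1560687 (1.75, adjusted p = 0.00611) and an entry of Rps20. Dapk2 had 19441, 17231, 13349, 11345 and 9829 counts in controls 10, 5, 8, 7 and 16 and 3976, 5565, 3890, 3749 and 4494 in controls 15, 12, 13, 14 and 11. Plekhb1 had 1682 to 4440 against 160.1 to 874.1. The Rps20 entry ENSRNOG00000008555 had 1934 to 13495 counts against 1.5 to 789.6, while the other Rps20 entry, ENSRNOG00000029627, had 8869 ± 2072 against 8469 ± 2774 (SD, n = 5 each; adjusted p = 0.956, edgeR). Reads of these copies can be divided between them by the counting, so the Rps20 value is uncertain.

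On the lower side 4 genes met the rule. IGG-2A, an immunoglobulin heavy chain gene, had 151.0, 273.6, 89.5, 385.9 and 170.1 counts in controls 10, 5, 8, 7 and 16. In controls 15, 12, 13, 14 and 11 it had 882.1, 1256, 537.7, 1371 and 713.4, all above the Alas2-high libraries (log2 fold change -2.17 ± 0.39, SE, adjusted p = 0.0093). Igj, the J chain that joins secreted antibodies, had 206.2 to 350.4 against 436.5 to 852.5 counts (log2 fold change -1.07, adjusted p = 0.012, edgeR). RT1-CE3, a class I histocompatibility gene of a family of near copies, was at -1.24 (adjusted p = 0.0203), and Sec23ip, of the early secretory pathway, at -0.44 (adjusted p = 0.0358). Among the other lower calls, and named after their values were seen, were the immunoglobulin gene IGH-1A (-2.33, adjusted p = 0.0431) and 2 endoplasmic reticulum proteins known from antibody-secreting cells, Mzb1 (adjusted p = 0.0451) and Txndc5 (-0.59, adjusted p = 0.0368). Mzb1 had 42.8 to 97.8 against 106.1 to 217.7 counts, while the groups overlapped for IGH-1A, at 59.2 to 453.2 against 342.1 to 2324. Without controls 8, 10 and 12, IGG-2A and Igj kept negative values of -1.66 and -0.72 that no longer passed (adjusted p = 0.0514 and 0.0527, edgeR).

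The 6 libraries in neither group give the same measure in samples the comparison did not use. Control 2, 1 of these 6, held 330270 normalized counts of Alb, against at most 71.4 in the others of the 6. What liver transcripts contribute to the r values was not tested. The 3 of them with more Alas2 (controls 6, 4 and 9) hold run codes C, B and C, and the 3 with less (controls 1, 2 and 3) all hold code A, so Alas2 level and code A cannot be told apart here either. Of the 638 genes called higher, 533 (83.5%) had a positive Pearson r with Alas2 across these 6, against 53.1% of all genes tested, and the median r was 0.60 against 0.04. Of the 26 lower genes, 13 had a positive r. Tfdp2 followed Alas2 in these libraries (r = 0.94, rho = 0.89), as did Gclm (r = 0.97, rho = 0.94), Fech (r = 0.82, rho = 0.94) and Gata1 (r = 0.90, rho = 0.83). In contrast, Cat (r = -0.08) and Gpx1 (r = -0.08) did not. By list, 26 of 28 reticulocyte maturation genes and 18 of 20 erythroid transcription genes had a positive r, but 4 of 9 globin genes and 4 of 74 ribosomal protein genes did. The r values are descriptions.

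**Figure D4:**
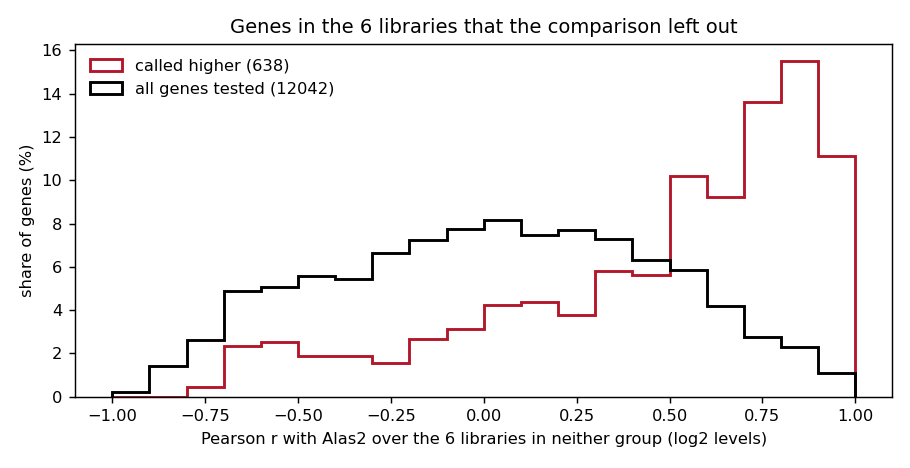
The lines give the share of genes, in percent, in each interval of Pearson's r with Alas2 over the 6 libraries in neither group, for the 638 genes called higher in red and for all 12042 genes tested in black. The called genes lie mostly at positive values, 83.5% of them above 0 against 53.1% of all genes.

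Since run code and group coincide, log2 Alas2 was also fitted over all 16 libraries with the run code as a term. This fit, added after the files were seen, gives what varies within codes. Codes E and F hold 1 library each (controls 15 and 16), so these libraries add nothing to a slope within codes. In that edgeR fit 0 genes were called in either direction (smallest adjusted p = 0.352), with 940 at an unadjusted p under 0.05, against 819 higher and 28 lower calls in the same fit without the code. It contains the 10 libraries of the main comparison, so its values stand beside the others and not as a second test. The median slope, in log2 units per doubling of Alas2, was 0.71 for the 638 higher genes and -0.05 for all genes, and 392 of the 638 (61.4%) had an unadjusted p under 0.05 against 7.8% of all genes. Cat had a slope of 1.46 ± 0.34 (SE, unadjusted p = 0.00104), Hagh of 1.02 (unadjusted p = 0.000412, edgeR) and Tfdp2 of 0.99 (unadjusted p = 0.000723). Slc4a1 was at 0.62 (unadjusted p = 0.131) and Plekhb1 at 0.95 (unadjusted p = 0.194, edgeR). By list the median slope was 0.52 for heme synthesis, 1.02 for globins, 0.51 for red cell membrane and 0.43 for erythroid transcription. It was 0.61 for reticulocyte maturation, 0.64 for antioxidant, 0.60 for iron and -0.18 for gas transport and glycolysis genes (9 of 20 positive). Among other lists, it was 0.75 for cell cycle, 0.48 for ribosomal, 0.27 for proteasome and 0.43 for B cell genes. Cytotoxic and monocyte genes were at 0.34 and 0.22, T cell genes at -0.145, and platelet and neutrophil genes at -1.29 each. Positive slopes were thus not particular to the red cell lists. Igj, at 0.09, turned direction within codes (unadjusted p = 0.869, edgeR).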

How the data were processed

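Whole blood RNA of 16 saline control rats was sequenced and globin mRNA depleted beforehand. The authors deposited RSEM estimated counts per gene, not normalized, 1 file a library; per the labels' processing notes the tools were CASAVA 1.8.2, Bowtie 0.12.9 and RSEM 1.2.0 with build rn5. The study's replacement of outlying counts was not applied. It sequenced 1 control group again after a poor library preparation, and the labels do not say which libraries are from it.

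Estimated counts were rounded. Files list different genes, so the 18031 genes listed in all 16 (of 26405 in any) were used. They hold at least 99.994% of each library's counts. Normalized counts are counts divided by DESeq2 median-of-ratios size factors over 16 libraries, and r uses log2(normalized count + 1). Libraries held 21466776 to 31189549 counts, and 3 counts correspond to 0.096 to 0.14 CPM, a floor for counting error only.

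The libraries were ranked by normalized Alas2. Genes were tested with edgeR 4.0.16 (R 4.3.3; TMM, filterByExpr, glmQLFit and glmQLFTest, Benjamini-Hochberg over all genes tested, Alas2 left out) on 5 against 5 libraries. The adjusted p-values set the difference between the groups against the spread between libraries within them. Since Alas2 chose the libraries and normalization enters that choice, they are not an independent test of a group effect. The groups share no run code, so these p-values cannot tell a group difference from a difference between codes. Library measures were compared by exact permutation. The steps were tested on simulated data. Alternatives used DESeq2 1.42.0, limma 3.58.1 voom, other scalings, filters and rankings, and each library left out.

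The 10 libraries and all gene lists were chosen with earlier results of these data known. Named were Alas2, Cat, the called list members with the largest changes followed by uncalled ones in list order, and up to 10 genes a direction with the largest log2 fold change among called genes with a symbol, mean log2 CPM of at least 3 and no overlap between groups. A symbol was taken at its entry with the highest total, in capitals where no other spelling is listed. Named after values were seen, for their known role or as contrast, were also Hba-a2, Hbb, Add1, Bnip3l, Map1lc3b, Ulk1, Prdx2, Gclc, Sod1, Hk1 and Pkm, as were Alb, Mb and Rag1. Some genes that met these rules are not reported here. RefSeq promoters are of build GRCr8. Figures were drawn with matplotlib 3.10.9.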

Additional observations from a re-analysis of the deposited data

Results flagged for a closer look

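Within each group of 5, the lowest or highest library was compared with the others by its gap to the nearest one as a share of the range of the group (critical value 0.71 for 5 libraries), for 5 library measures and the named genes on a log2 scale. Of 120 such tests 4 passed, and chance passes about 1 in 20. In the Alas2-low group, control 12 stood high in the share of ribosomal protein genes, at 8.73% of the counts. In the Alas2-high group, control 10 stood high in Tmod1, at 8084 normalized counts. Control 16 stood apart in that group with 1934 counts of the Rps20 entry ENSRNOG00000008555, the lowest, and 426.5 counts of Sec23ip, the highest. It is the 1 library of the group with run code F. The part of the run code in these values was not tested.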

How the results depend on the processing

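The counts of genes called higher (638) and lower (26) rested on several choices. DESeq2 called 1037 and 71, and all 638 were among its higher calls. Total count scaling called 225 and 6022, with a median of -0.643 over all genes, and 604 of the 638 stayed above 0 there. Ranking by Alas2 CPM, which replaces controls 8, 7 and 12 by controls 6, 4 and 2 of the middle, called 105 and 17, and the 8 highest against the 8 lowest called 402 and 8. The 4 highest against the 4 lowest called 99 lower, and all 16 libraries in 3 groups called 43 lower. With the run code as a term, over 16 libraries, 0 were higher and 0 lower (edgeR; 940 at an unadjusted p under 0.05). Without controls 8, 10 and 12, 404 were higher. Leaving out 1 library gave 340 to 828 higher and 10 to 91 lower calls. The higher count moved by over 1.5 times without control 11 (340), 13 (368), 14 (425), 15 (368) or 5 (346). The lower count did so without control 11 (10), 12 (51), 13 (15), 14 (12), 15 (10), 16 (91) or 5 (13). The causes were not tested.

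Of 55 named genes, 49 kept their direction but lost their call with the run code, 42 under the CPM ranking and 22 with 8 against 8. Reversed values were 0.09 for Igj, 0.845 for Mzb1 and 0.078 for IGH-1A with the run code, -0.124 (8 against 8) and -0.25 (CPM ranking) for Hbb, -0.195 (CPM ranking) and -0.158 (total count scaling) for Hba-a2, and -4.752 (8 against 8), -6.87 (CPM ranking) and -2.794 (continuous Alas2, 16 libraries) for Apoa1, whose level in control 2 was 7393.

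Where differences in library measures changed sign, they did not pass the threshold. That in ribosomal protein share was -0.153 with 4 against 4 and -0.428 with 8 against 8, that in total count -1609623 with 8 against 8, and that of medians in genes with a count 92.0. Leaving out 1 library, the differences ran from -358185 to 1296826 counts, from -179.0 to 29.2 genes, from -1.785 to 0.686 points of globin share, from -0.219 to 0.676 points of ribosomal share and from 4.245 to 6.701 points of the top 20 share, the last passing without control 8 (exact permutation, adjusted p = 0.0397). The top 20 share was taken with Alas2 in the counts, so its test is not independent of the choice of groups.

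No paired analysis was possible because all libraries carry 1 label and different numbers. A run-code term could not be fitted to 5 against 5. Genes near 3 counts a library are not resolved at this depth, and with 5 libraries a group, small differences can be missed.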
